A study of Mytilus galloprovincialis with 18 samples.

Results

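A mussel cDNA array holds 1920 named positions, more than the paper counts as mussel probes, and all are called probes below. Of these, 6 carry signalling genes that the study names as MEKK5, DUSP7, SOCS2, RACK1, NELL1 and cMyc. Their transcript levels were followed in the gills of Mytilus galloprovincialis after 48 h of exposure to Cd, Cu and Hg. The metals were given together as chloride salts in equimolar amounts, at 50, 100 or 200 nM. RNA of 3 adult mussels per dose was compared, mussel by mussel, with 1 pool of gill RNA from 5 control mussels kept in parallel without added metals. There were 2 arrays per mussel, A and B, that held the same RNA with the Cy3 and Cy5 dyes exchanged, and thus 18 arrays from 9 mussels. All values are log2 ratios of the mussel over the control pool, so that 0 is the level of the pool, and n is 3 mussels at each dose. The mussels of a dose shared 1 tank, so dose and tank cannot be told apart, and the pool counts as 1 control sample, so no test holds the spread between control mussels. The samples were whole gill tissue, in which fewer cells of a type and less RNA per cell cannot be told apart.

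The members were chosen by their place in the study. DUSP7 (Myt01-016G07), SOCS2 (Myt01-012D01), NELL1 (Myt01-015F09) and cMyc (Myt01-003C05) were selected on their ratios at 200 nM, where the study lists them as changed, and RACK1 (Myt01-007H10) on its ratios at 100 and 200 nM. Those values are therefore given as a description without a test. MEKK5 (Myt01-006H07) appears in the study's text and in none of its lists of changed probes, and was tested at every dose. Names rest on sequence similarity: DUSP7 to a zebrafish protein, SOCS2 to abalone, RACK1 to a pearl oyster, NELL1 to a tick and cMyc to the eastern oyster.

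In animals, cell stress is relayed to the nucleus by cascades of MAP kinases. MEKK5 stands near the top of such a cascade and passes stress signals on by phosphorylating the next kinase, while dual specificity phosphatases such as DUSP7 switch MAP kinases off again. SOCS proteins are induced by cytokine signalling and shut it down in a feedback loop. RACK1 is a scaffold that binds activated protein kinase C and also sits on the small ribosomal subunit, and NELL1 is a secreted protein with EGF-like repeats that, in mammals, binds protein kinase C. Myc is a transcription factor that promotes growth, ribosome production and entry into the cell cycle. Cd, Cu and Hg are known to bind protein thiols and to disturb the redox balance of cells.

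The 6 probes gave signal above local background, as did 95.6 to 100% of all probes on each array. Each had 36 spot readings per channel, and all 36 test readings of every member lay more than 2 SD above local background, as did 35 or 36 reference readings, with no saturated spot. The median test intensity was 8.52 times the local background for DUSP7, 7.63 times for SOCS2, 4.34 times for RACK1, 2.83 times for NELL1, 2.76 times for cMyc and 2.75 times for MEKK5. The last 3 were thus read closest to background. The arrays A and B of a mussel fell on the same side of 0 in 8 of 9 mussels for DUSP7 and for SOCS2, in 6 for RACK1, in 5 for NELL1 and cMyc, and in 4 for MEKK5. One mussel stood apart in its correlation with the others before any gene was considered. Over all probes, the ratios of 50 nM replicate 3 correlated at -0.42 to -0.16 with those of the other mussels, whereas the other 8 mussels correlated with each other at 0.11 to 0.52. On arrays A its lowest correlation was -0.31. The direction of its ratios, though stated by the dyes, is given below both as deposited and turned. Arrays A and B of the same mussel correlated over all probes at only 0.05 and 0.04 in 100 nM replicates 2 and 3. In the other mussels they did so at 0.24 to 0.48, with 0.35 in 50 nM replicate 3. The consensus correlation of the arrays of a mussel was 0.07. The values of 100 nM replicates 2 and 3 thus repeated poorly between arrays. In 1 of the 18 scanner files, that of the reference-in-Cy5 array of 100 nM replicate 1, the control image listed in the header carries a different letter from the rest, and whether this array had the same reference was not tested. The lists of cell markers were detected on most arrays (8 of 8 probes of ciliated gill cells, 5 of 5 of haemocytes, 3 of 3 of muscle and 9 of 9 of foot and byssus gland). Since nearly all probes of the array were detected, these counts say little about the presence of such cells.

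At 200 nM, 4 members lay above the pool in all 3 mussels (MEKK5, DUSP7, SOCS2 and cMyc) and NELL1 lay below it in all 3, where 21.2% of all probes were above in all mussels and another 21.2% below. At 100 nM, MEKK5 and RACK1 were above the pool in all 3 mussels (18.9% of all probes) and no member was below in all (16.6% of all probes). At 50 nM no member was on 1 side in all mussels (10.1% of all probes above, 9.74% below). No member passed an adjusted p of 0.05 at any dose in limma, and over all probes 2.03% passed at the highest dose and 0% at each of the lower ones. At an unadjusted p under 0.05 there was 1 member at 50 nM (SOCS2), 1 at 100 nM (RACK1) and 5 at 200 nM (all but RACK1), against 3.75, 9.53 and 18.1% of all probes. The counts at 200 nM, and that of RACK1 at 100 nM, follow from the choice of the members and are not read further. One-class SAM, the kind of test named in the study's methods, was computed anew and called 0 of the 6 at each dose. It called only 0, 0.521 and 0.365% of all probes at 50, 100 and 200 nM. The study's own SAM run listed 27, 161 and 369 probes at these doses. Its list at 200 nM holds DUSP7, SOCS2, RACK1, NELL1 and cMyc, and its list at 100 nM holds RACK1. Why the 2 runs differ was not tested, and the count of 0 is not read further.

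**Figure D1:**
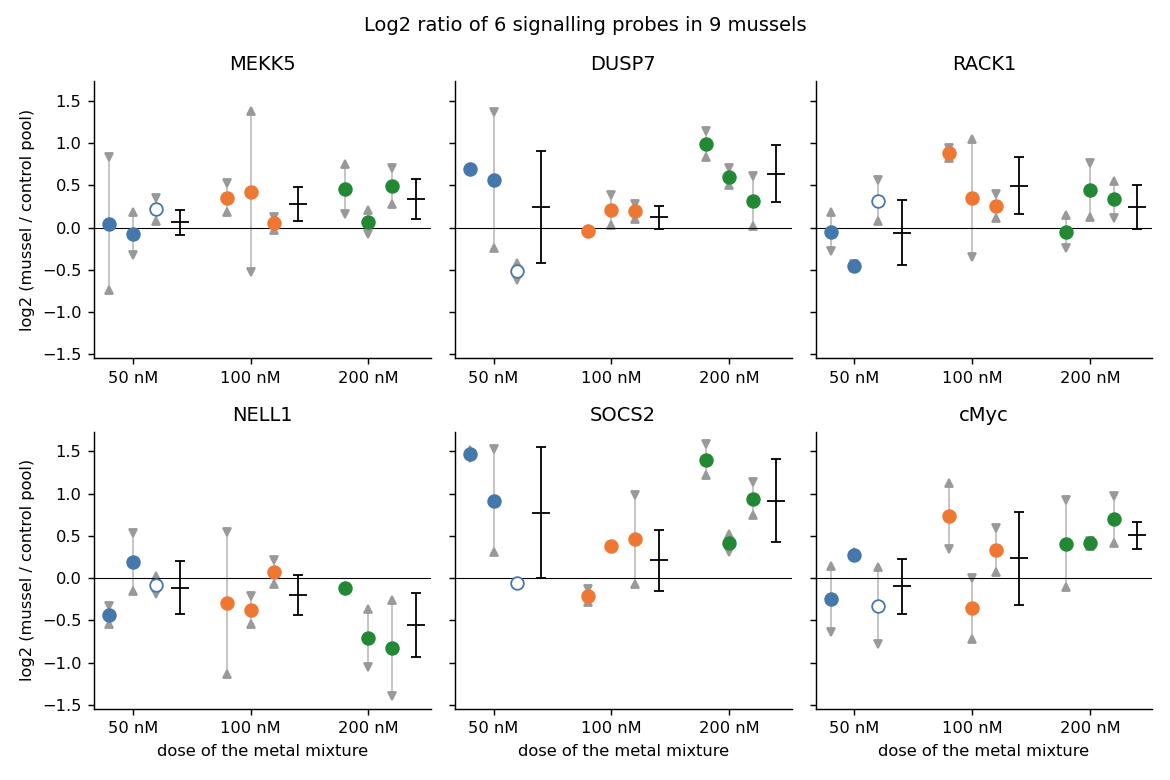
Log2 ratio over the control pool (vertical axis) of the 6 probes by dose (horizontal axis). Circles are mussels in the order of replicates 1 to 3 (open: 50 nM replicate 3), grey triangles their arrays A (pointing up) and B (pointing down), and black bars the mean ± SD of 3 mussels; the means of SOCS2 and DUSP7 at 100 nM (0.21 and 0.12) lie below those at 50 and 200 nM.

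MEKK5, the stress-activated kinase, stayed near the pool at the lowest dose and was slightly above it at the higher ones, without passing the test. The log2 ratios at 50 nM were 0.04, -0.07 and 0.21 in replicates 1 to 3. At 100 nM they were 0.35, 0.42 and 0.05, and at 200 nM 0.46, 0.07 and 0.49. The 3 doses overlapped, since each of the higher doses held 1 mussel within the range at 50 nM. The mean was 0.06 ± 0.14 (SD, n = 3) at 50 nM, 0.28 ± 0.20 at 100 nM and 0.34 ± 0.23 at 200 nM, the last equal to 1.26-fold. In limma the 95% confidence interval at 200 nM was 0.03 to 0.64 (unadjusted p = 0.0331, adjusted p = 0.226). At 100 nM it was -0.03 to 0.58 (adjusted p = 0.542) and at 50 nM -0.24 to 0.37 (adjusted p = 0.992). The difference between 200 and 50 nM was 0.28 (-0.16 to 0.71, adjusted p = 0.672) and that between 200 and 100 nM 0.06 (-0.37 to 0.49, adjusted p = 0.963), with 0% of all probes called in either comparison. The arrays of a mussel could differ widely and in either direction for this probe: 50 nM replicate 1 had -0.74 on array A and 0.83 on array B, and 100 nM replicate 2 had 1.38 and -0.53. At 200 nM the mean was 0.08 without background subtraction, 0.20 with plain subtraction and 0.17 in the authors' normalized values.

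DUSP7, the phosphatase that acts on MAP kinases, had its highest mean at the highest dose and lay near the pool at the middle one. At 200 nM its log2 ratios were 0.99, 0.60 and 0.32, a mean of 0.64 ± 0.34 (SD, n = 3) or 1.55-fold over the pool. At 100 nM they were -0.04, 0.21 and 0.19, with a mean of 0.12 ± 0.14. All 3 mussels at 200 nM lay above all 3 at 100 nM, as did those of 7.5% of all probes. At 50 nM the mussels disagreed, with 0.69 and 0.56 in replicates 1 and 2 and -0.52 in replicate 3. The mean there was 0.24 ± 0.66 (limma adjusted p = 0.992), and the interval of -0.23 to 0.72 covers both no change and a change as large as the mean at 200 nM. Without 50 nM replicate 3 it was 0.63 (SE 0.19, adjusted p = 0.369), and with its sign turned 0.59 (SE 0.15, adjusted p = 0.156). It was 0.024 without replicate 1 and 0.085 without replicate 2. Replicate 2 at 50 nM rested on array B, which gave 1.37 against -0.24 on array A. At 100 nM the adjusted p was 0.879 in limma. The mean at 200 nM lay between 0.46 and 0.82 under all alternatives tried, including those that left out 1 mussel.

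SOCS2, the feedback inhibitor of cytokine signalling, had the highest mean of the 6 probes at 200 nM and its highest single value at 50 nM. At 200 nM the values were 1.40, 0.42 and 0.94, with a mean of 0.92 ± 0.49 (SD, n = 3), equal to 1.89-fold. At 100 nM the values were -0.21, 0.38 and 0.46, and the mean of 0.21 ± 0.36 was not distinguishable from the pool (limma adjusted p = 0.807, 95% interval -0.37 to 0.79). The highest value, 1.47 or 2.77-fold, was in 50 nM replicate 1. Replicate 2 at 50 nM had 0.92 and replicate 3 -0.06, so the lowest dose spanned the range from no change to the level of the highest dose. The mean at 50 nM was 0.78 ± 0.77, with an unadjusted p of 0.0128 and an adjusted p of 0.992 in limma. Leaving out 50 nM replicate 3 gave 1.19 (SE 0.25, adjusted p = 0.132) and turning its sign 0.81 (SE 0.25, adjusted p = 0.260). Leaving out replicate 1 gave 0.43. Without background subtraction the mean at 50 nM was 0.47, and in the authors' normalized values 0.48. The mean at 200 nM moved between 0.68 and 1.17 over all alternatives.

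RACK1, the scaffold of protein kinase C, was highest at the middle dose. The log2 ratios at 100 nM were 0.88, 0.35 and 0.25, with a mean of 0.49 ± 0.34 (SD, n = 3) or 1.41-fold. At 200 nM they were -0.05, 0.44 and 0.34, with a mean of 0.24 ± 0.26 or 1.18-fold, so the doses overlapped. That mean was 0.39 without replicate 1 and 0.14 without replicate 2. At 50 nM replicate 1 had -0.05, replicate 2 -0.45 and replicate 3 0.32. That mean was -0.06 ± 0.38 (limma adjusted p = 0.992, 95% interval -0.45 to 0.33). It was -0.25 (adjusted p = 0.867) without replicate 3, -0.27 (adjusted p = 0.715) with its sign turned, and 0.14 without replicate 2, so its direction is not settled. At 100 nM the mean was 0.30 without replicate 1 and 0.33 on arrays B alone, and replicate 1 itself had 0.82 on array A and 0.94 on array B.

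NELL1, the secreted protein that binds protein kinase C, was the only member with a mean below the pool at every dose. At 200 nM its log2 ratios were -0.12, -0.71 and -0.82, a mean of -0.55 ± 0.38 (SD, n = 3) that corresponds to a level 1.46-fold lower than in the pool. At 100 nM the ratios were -0.29, -0.38 and 0.08, and at 50 nM -0.43, 0.19 and -0.08. Each of the lower doses thus had 1 mussel above the pool, and the range at 50 and at 100 nM overlapped that at 200 nM. The mean was -0.20 ± 0.24 at 100 nM (limma adjusted p = 0.707, 95% interval -0.58 to 0.18). At 50 nM it was -0.11 ± 0.31 (adjusted p = 0.992, interval -0.49 to 0.27), -0.12 without replicate 3 and -0.05 with its sign turned. At 200 nM arrays A gave -0.24 and arrays B -0.87, no background subtraction -0.36 and the authors' normalized values -0.34. The duplicate spots on array B read -2.74 and -0.05 in 200 nM replicate 3, and -0.42 and -1.68 in replicate 2. The size of the decrease in these mussels thus depended on single spots. At 100 nM arrays B alone gave 0.19, the opposite direction.

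cMyc, the growth-promoting transcription factor, had its most even values at the highest dose. The 3 mussels at 200 nM had 0.41, 0.41 and 0.69, with a mean of 0.51 ± 0.16 (SD, n = 3) or 1.42-fold. All 3 lay above the 50 nM mussels, which had -0.24, 0.28 and -0.32, as was seen for 7.24% of all probes. The middle dose was scattered, with 0.73, -0.35 and 0.33 and a mean of 0.24 ± 0.55 (limma adjusted p = 0.692, 95% interval -0.19 to 0.67). Without 100 nM replicate 1, which had 1.12 on array A and 0.34 on array B, that mean was -0.01. At 50 nM the mean was -0.10 ± 0.33 (adjusted p = 0.992), 0.02 without replicate 3 and 0.12 with its sign turned. The mean at 200 nM was 0.20 without subtraction, 0.30 with plain subtraction, 0.26 in the authors' normalized values, 0.23 on arrays A and 0.78 on arrays B.

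Between 100 and 50 nM, a comparison in which the pool cancels and which chose neither MEKK5, DUSP7, SOCS2, NELL1 nor cMyc, no member differed in limma (adjusted p = 0.998 for each, 0% of all probes called). The largest difference was that of SOCS2, which was lower at 100 nM by a log2 difference of -0.57 with an interval of -1.38 to 0.25. That of cMyc was 0.33 (-0.27 to 0.94) and that of MEKK5 0.21 (-0.22 to 0.65). DUSP7 differed by -0.13 (-0.79 to 0.54) and NELL1 by -0.09 (-0.63 to 0.45). Each of these intervals holds 0 and reaches to 0.63 or further on 1 side, so the size of a difference between these doses is not settled with 3 mussels each. Without 50 nM replicate 3 the difference was -0.98 (SE 0.32) for SOCS2 and -0.51 (SE 0.24) for DUSP7, with an adjusted p of 0.997 for each. Without 50 nM replicate 1 it was -0.22 for SOCS2 and 0.096 for DUSP7.

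**Figure D2:**
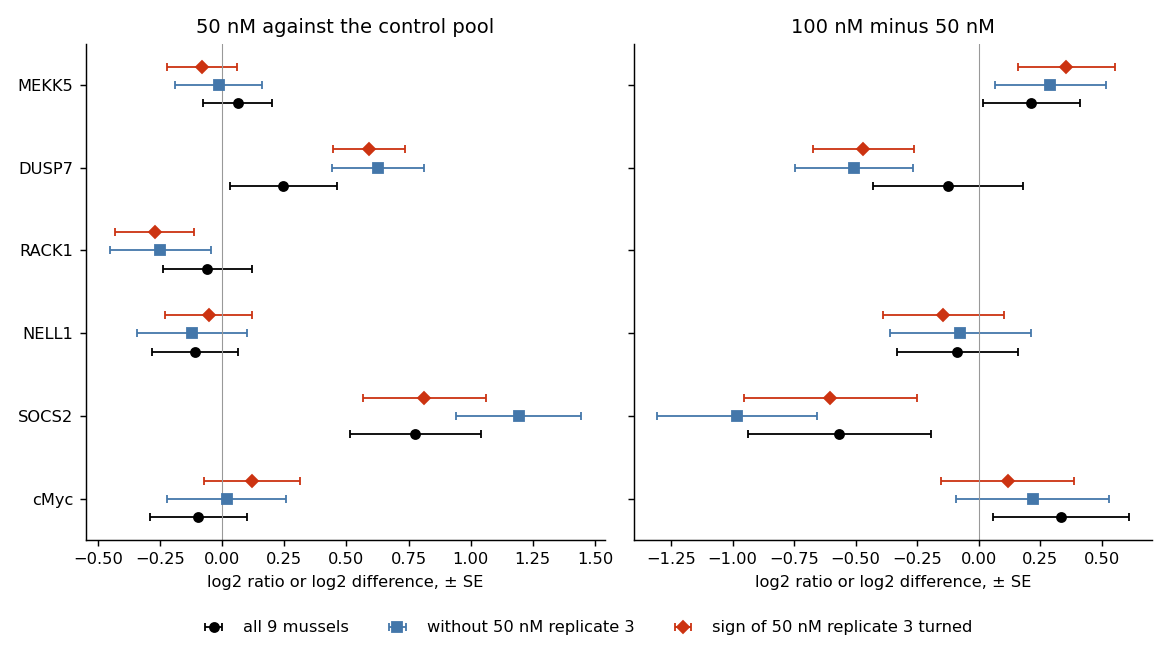
Mean log2 ratio at 50 nM (left) and log2 difference of 100 minus 50 nM (right), on the horizontal axes, with the standard error of the limma fit, by member (vertical axis). Black circles hold all 9 mussels, blue squares leave out 50 nM replicate 3 and red diamonds turn its sign; DUSP7 at 50 nM goes from 0.24 to 0.63 and 0.59, and RACK1, chosen on its values at 100 nM, is not shown on the right.

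Across the 9 mussels, SOCS2 and DUSP7 varied together. Both were on the same side of 0 in 9 of 9 mussels, lowest in 50 nM replicate 3 and 100 nM replicate 1 and highest in replicate 1 at 50 and at 200 nM. Pearson's r was 0.84 and Spearman's rho 0.82. These are descriptions with no test, because ratios at 200 nM chose both probes and the mussels of a dose shared a tank. The correlation was 0.88 over the 6 mussels at 50 and 100 nM, whose values did not choose the probes. It was 0.85 for deviations from the dose means, 0.79 without the 2 mussels farthest from the median of DUSP7, and 0.74 with 50 nM replicate 3 turned. With DUSP7 read on arrays A and SOCS2 on arrays B it was 0.46, and 0.58 the other way round, readings in which the probes share no array. Among the 1919 other probes, DUSP7 ranked 5 by likeness to SOCS2, and SOCS2 ranked 18 by likeness to DUSP7. RACK1 ran opposite to SOCS2, with r = -0.73 and rho = -0.70, of which 6 of the 9 points were values that chose 1 or both of the probes. RACK1 ranked 24 from the lowest of the 1919 probes by likeness to SOCS2, and SOCS2 ranked 28 from the lowest by likeness to RACK1. This correlation was -0.82 without the 2 mussels farthest from the median of RACK1, -0.75 within doses, and -0.48 with 50 nM replicate 3 turned. The r of the other 13 pairs ran from -0.54 to 0.45. All arrays shared the pool, and the relations between members were noticed after the values were seen.

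**Figure D3:**
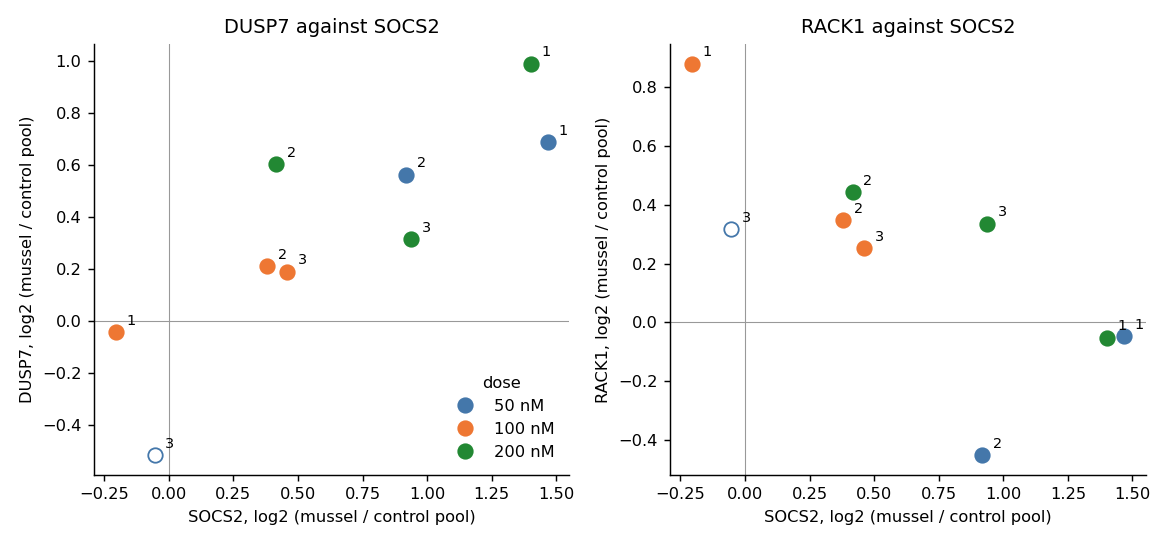
DUSP7 (left) and RACK1 (right) against SOCS2, each as the log2 ratio over the control pool, in 9 mussels coloured by dose and numbered by replicate (open circle: 50 nM replicate 3). DUSP7 rises with SOCS2 (r = 0.84) and RACK1 falls with it (r = -0.73).

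The probes most like each member over the 9 mussels were found by Pearson's correlation, as a description. For cMyc they were the translationally controlled tumor protein TCTP, a growth-related protein (r = 0.92), ribosomal protein L41 (r = 0.90) and an undescribed probe (r = 0.89). For DUSP7 they were 2 probes without similarity (r = 0.92 and 0.91) and ferritin, the iron storage protein (r = 0.91, and 0.81 without 50 nM replicate 3). The nearest probes of SOCS2 (r = 0.86 to 0.88), MEKK5 (r = 0.82 to 0.84) and NELL1 (r = 0.87 to 0.89) carry no description in the study's probe lists. RACK1 had 2 undescribed probes (r = 0.92 and 0.90) and 1 similar to a sea urchin hypothetical protein (r = 0.86). These points share arrays, pool and tanks. The probes named are the highest of a member's correlations with all other probes over 9 mussels. How high such values run without any relation was not tested. The study lists cMyc, DUSP7, TCTP, L41 and ferritin as over-expressed at the highest dose, and the part of this shared choice in their r was not tested. cMyc was also among the members read closest to background. No shared function is read from these likenesses.

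Markers of other cells and of the gill itself were read beside these genes. The 8 ciliated cell probes encode alpha and beta tubulins, axonemal dyneins and a radial spokehead protein. Whether the tubulin probes read ciliated cells alone was not tested. The mean log2 ratio over the 8 was -0.57 to 0.09 in the 50 nM mussels, -0.57 to -0.39 at 100 nM and -0.68 to -0.34 at 200 nM. Of these 8 probes, 7 had a mean below 0 at 200 nM, a dose at which the study lists all 8 as changed. The 5 haemocyte probes, antimicrobial peptides and other immune proteins, were at -0.26 to -0.01, -0.46 to 0.13 and -0.57 to -0.43, with 5 of 5 below 0 at 200 nM. The 3 muscle probes spanned -0.13 to 0.25 at 200 nM and the 9 foot and byssus probes -0.25 to -0.09. No marker probe was called at any dose in limma, and the study had selected them all on their change in these mussels. At 200 nM the study also lists C1q domain proteins, another kind of immune probe, some as over-expressed and some as under-expressed. The directions of the ciliated cell probes and of the 5 haemocyte probes there may thus follow from their choice and are not read as a result. The part of cell composition in the values of the 6 members was not tested.

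A further 18 signalling probes of the array were taken from the study's text and lists. The 6 that only its text names, among them the transcription factor CREB, the small GTPases MRAS and RAB27 and the lipid-releasing enzyme cPLA2, had a median log2 ratio of 0.08 at 50 nM, 0.04 at 100 nM and 0.08 at 200 nM, where the median of all probes was 0.0037, 0.0042 and -0.02. None of them was called in limma. At an unadjusted p under 0.05, 1 passed at 50 nM (3.75% of all probes) and none at 100 or 200 nM. This was cPLA2, with a mean of 0.52 ± 0.24 at 50 nM (limma unadjusted p = 0.00437, adjusted p = 0.992). It lay above the pool in 3 of 3 mussels there, as did 10.1% of all probes. The paper reports no significant change of this probe in the exposed gills. Its mean was 0.02 at 100 nM and 0.0049 at 200 nM. The other 12 came from the study's lists of changed probes, 10 of them from the list at 200 nM, so their values there are a description.

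At 200 nM, the growth arrest and DNA damage protein GADD45 gamma had the highest mean of these probes, 1.04 ± 0.61, with single mussels from 0.52 to 1.71. The small GTPases ADP-ribosylation factor 2 and Rab6 had means of 0.86 and 0.52 and GDP dissociation inhibitor 2, which regulates such GTPases, 0.67, each above the pool in 3 of 3 mussels. The small GTPases MRAS and RAB27 were not, with 0.08 each (2 of 3 mussels above the pool). RalGEF, an exchange factor, had -0.11 (0 of 3) and GTP-binding protein 4 had -0.04 (2 of 3). Cyclin-dependent kinase 5 and the testis-specific kinase 4-like probe had 0.64 each and the channel protein pannexin 2 0.43, in 3 of 3 mussels. Calmodulin, the calcium sensor that controls many kinases, had -0.84 ± 0.35 and fringe, a glycosyltransferase that modifies Notch, -0.65 ± 0.47. Calmodulin was the only one of the 18 called at 200 nM in limma, where 2.03% of all probes were called. The list at that dose chose it, so this call is not read further. At 100 nM, whose list does not hold it, calmodulin was below the pool in 3 of 3 mussels, as were 16.6% of all probes. Its mean there was -0.51 ± 0.30 (limma unadjusted p = 0.0125, adjusted p = 0.360), against the same pool as at 200 nM. ADP-ribosylation factor 2, listed at 100 nM too, had 0.85 ± 0.61 there. None of the 18 was called at 50 or 100 nM in limma. At 200 nM 7 of the 18 passed an unadjusted p of 0.05 above the pool and 2 below (18.1% of all probes in either direction), a count that follows from the 10 probes taken from the list at that dose.

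**Figure D4:**
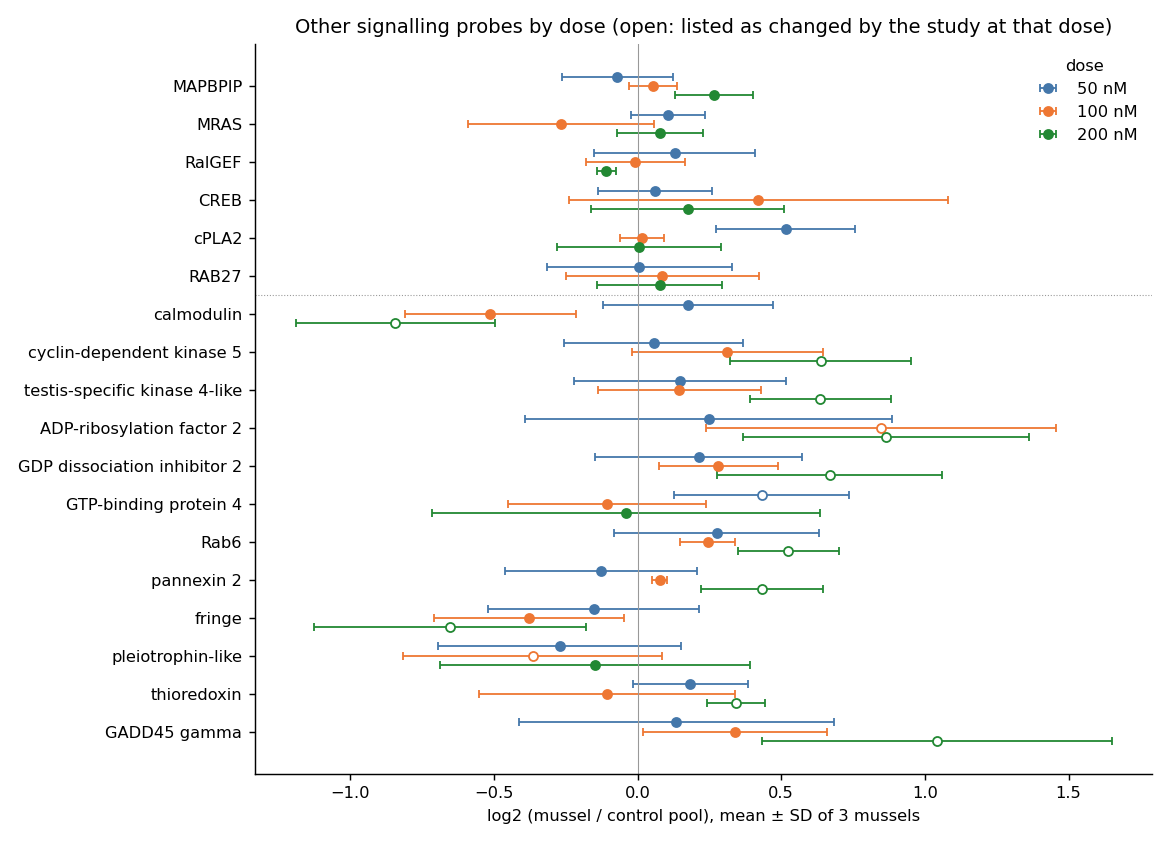
Mean ± SD of the log2 ratio over the control pool (horizontal axis) of 18 other signalling probes (vertical axis) in 3 mussels at each dose. Probes above the dotted line are named in the study's text only and lie within 0.52 of 0; open circles mark values at a dose where the study lists the probe as changed, from -0.84 (calmodulin) to 1.04 (GADD45 gamma) at 200 nM.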

How the data were processed

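Gill RNA of 9 mussels was hybridised against 1 pool of control RNA on 18 spotted arrays with 2 spots for each of 1920 probes. The authors scanned the slides and deposited, for both channels, spot intensity and local background before subtraction (checked on the 3836 spots of the array that also lists ratios: all match the subtracted ratio within 1%). They also deposited a table of log2 ratios, normalized by total intensity and LOWESS, which was used as an alternative. Its column medians lie between -0.01 and 0.03 and it correlated at 0.44 to 0.94 per array with the background-subtracted scanner ratios and at 0.73 to 0.94 with the loess-normalized ratios computed here, so its direction is the same. Whether its background was subtracted is not given in the sources used here.

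Median spot intensity per array was 361 to 1334 for the test channel and 245 to 2787.5 for the reference, and the number of arrays limits the precision. Background was corrected by normexp (offset 50) and ratios by loess within arrays (span 0.3, 4 iterations). Both spots of a probe and then both arrays of a mussel were averaged. A model with a mean for each dose was fitted to the 9 mussels (limma 3.58.1, R 4.3.3, statmod for the random block), with Benjamini-Hochberg adjustment over 1920 probes and a threshold of 0.05. Nothing was filtered out. The paper counts fewer mussel probes than 1920, so other positions enter the percentages of all probes, the adjustment and the search for like probes. The steps were tested on simulated data.

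The members, lists and tests were chosen with earlier results of these data known. Named were the 6 members, those of 18 other signalling probes past an unadjusted p of 0.05 at 100 or 200 nM, and the 3 probes most like each member; cPLA2 and the groups named beside it were chosen after their values were seen, as were the pairs of members. Labels do not say that a number marks a shared animal or day across doses. Alternatives were other background corrections and normalizations, the deposited table, single arrays, other fits, 1 mussel turned, 1 mussel left out, and SAM.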

Additional observations from a re-analysis of the deposited data

How the results depend on the processing

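No member was called at 50 or 100 nM, or between them, under any alternative. At 200 nM the count of called members was 0 in the fit reported, 1 with all 18 arrays and the mussel as a random block (SOCS2), 2 with 50 nM replicate 3 turned (SOCS2 and DUSP7), and 0 to 2 with 1 mussel left out, 2 only without 50 nM replicate 3. That dose chose both probes, so no support is drawn from these counts. Of the 18 other signalling probes 1 was called at 200 nM, a dose whose list chose 10 of them. That count was 5 with plain subtraction, 4 with print-tip loess, 2 with scaling between arrays, 5 in the deposited table, 0 on arrays A, 0 on arrays B, 9 with the random block, 7 with the mussel turned, 0 by SAM and 0 to 3 with 1 mussel left out. Over all probes, 39 calls at 200 nM became 0 on arrays A and 164 with the random block, and 0 to 97 with 1 mussel left out. At 100 nM, 0 calls became up to 18, and at 50 nM up to 5. Replicate numbers name different mussels across doses, and their deviations correlated at -0.10 to 0.15. A replicate block gave 0 called members at each dose and between 100 and 50 nM, and 16 calls over all probes at 200 nM.

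Values under the threshold changed sign in these cases, and the cause was not tested. MEKK5 at 50 nM was -0.015 with print-tip loess, -0.16 on arrays A, -0.081 with the mussel turned and -0.014 to 0.13 with 1 mussel left out. Its difference of 100 minus 50 nM was -0.25 on arrays B. Its difference of 200 minus 50 nM was -0.0033 without background subtraction and -0.023 on arrays B. Its difference of 200 minus 100 nM was -0.0050 without subtraction, -0.10 on arrays A and -0.051 to 0.20 with 1 mussel left out. DUSP7, 100 minus 50 nM, was 0.032 with median centring, 0.023 on arrays A and -0.51 to 0.096 with 1 mussel left out. RACK1 at 50 nM was -0.25 to 0.14 with 1 left out. NELL1 was 0.0037 at 50 nM and 0.19 at 100 nM on arrays B, and its difference 0.18. With 1 mussel left out it was -0.26 to 0.052 at 50 nM and -0.25 to 0.062 for the difference. cMyc was 0.19 at 50 nM on arrays A, 0.12 with the mussel turned and -0.28 to 0.017 with 1 left out. At 100 nM it was -0.011 to 0.53 with 1 left out, and its difference was -0.034 on arrays A. Leaving out dim probes removed none. NELL1, cMyc and MEKK5 had a median signal of less than 3 times background.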
